A study of Mus musculus with 30 samples.

Results

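The ovaries of mouse embryos of 12.5 days post coitum (dpc) were compared with ovaries of 11.5 dpc across the genes on 3 Affymetrix array types, called A, B and C here. The comparison used the 12 arrays titled for these ages, of 30 in the series: 6 of 12.5 dpc and 6 of 11.5 dpc. Each age had 2 numbered samples (replicates 1 and 2), and each number had 1 array of each type, which carry different probe sets. Both ages were untreated embryos of a BL/6-129 background, so all groups share that genetic mixture and no engineered allele or agent is named for either. RNA came from pooled ovaries, extracted with TRIzol after the gonads had been sexed by a PCR for Sry, a gene of the Y chromosome. A value therefore stands for a pool and not for 1 embryo, and the labels leave out how far the neighbouring mesonephros was removed. Nothing in the labels says that the 2 numbers of an age were separate pools, so the p-values measure only how far these samples differ, and that may be technical variation. The other ages of the series, 14.5, 16.5 and 18.5 dpc, served for the estimate of the spread and for following the changed genes.

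In this interval the mouse gonad, formed from coelomic epithelium and populated by migrating primordial germ cells, takes its female course. Germ cells multiply, lose DNA methylation at the promoters of germline genes and begin to express RNA-binding proteins such as Dazl and Ddx4, which prepare them for meiosis. Supporting cells without Sry express Wnt4, Rspo1 and Foxl2, and the activin antagonist follistatin, and become pregranulosa cells.

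Because germline genes carry methylation-sensitive promoters rich in CpG, the start regions of the 4 genes of germ cell RNA machinery with the smallest p in this comparison, and of the somatic homeobox gene Irx3, are shown. Each window runs from 250 bases before to 50 bases after the gene's start, 5′ to 3′ on the gene's strand, from RefSeq (GRCm38.p6). Capitals mark CpG dinucleotides. Dazl lies at chr17:50293571-50293870 (minus strand), Ddx4 at chr13:112652261-112652560 (minus), Tex19.1 at chr11:121145893-121146192 (plus), Gtsf1 at chr15:103430378-103430677 (minus) and Irx3 at chr8:91801605-91801904 (minus).
Dazl: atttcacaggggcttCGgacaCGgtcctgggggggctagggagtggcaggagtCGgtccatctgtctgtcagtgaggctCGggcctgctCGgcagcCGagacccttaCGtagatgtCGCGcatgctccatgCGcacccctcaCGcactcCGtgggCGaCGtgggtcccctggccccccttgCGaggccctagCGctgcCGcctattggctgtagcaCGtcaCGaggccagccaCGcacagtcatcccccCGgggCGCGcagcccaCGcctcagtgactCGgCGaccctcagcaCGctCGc
Ddx4: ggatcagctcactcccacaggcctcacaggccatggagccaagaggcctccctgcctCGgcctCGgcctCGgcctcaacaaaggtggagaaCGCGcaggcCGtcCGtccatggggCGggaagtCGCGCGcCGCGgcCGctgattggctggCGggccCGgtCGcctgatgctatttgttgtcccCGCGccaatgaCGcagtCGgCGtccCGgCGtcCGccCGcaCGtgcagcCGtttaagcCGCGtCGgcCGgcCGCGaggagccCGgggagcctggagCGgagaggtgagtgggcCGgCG
Tex19.1: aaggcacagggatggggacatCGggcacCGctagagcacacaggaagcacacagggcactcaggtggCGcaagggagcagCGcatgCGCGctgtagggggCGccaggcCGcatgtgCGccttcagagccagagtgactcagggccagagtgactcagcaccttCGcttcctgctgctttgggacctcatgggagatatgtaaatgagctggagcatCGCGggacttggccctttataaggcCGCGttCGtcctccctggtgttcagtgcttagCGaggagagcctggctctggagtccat
Gtsf1: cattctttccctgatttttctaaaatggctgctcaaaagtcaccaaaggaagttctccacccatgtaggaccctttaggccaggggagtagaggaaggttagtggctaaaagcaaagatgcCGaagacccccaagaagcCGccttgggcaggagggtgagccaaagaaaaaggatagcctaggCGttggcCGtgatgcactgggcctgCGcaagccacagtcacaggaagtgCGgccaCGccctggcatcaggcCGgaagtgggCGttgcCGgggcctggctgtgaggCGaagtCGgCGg
Irx3: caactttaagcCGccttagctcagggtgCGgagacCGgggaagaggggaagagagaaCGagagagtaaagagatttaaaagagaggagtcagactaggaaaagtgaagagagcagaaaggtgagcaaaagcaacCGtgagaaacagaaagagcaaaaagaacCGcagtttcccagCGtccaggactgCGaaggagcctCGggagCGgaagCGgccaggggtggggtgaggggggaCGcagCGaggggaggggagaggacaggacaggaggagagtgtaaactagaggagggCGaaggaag

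The Ddx4 window held 38 CpG and the Dazl window 28, against a median of 7 over 27025 such windows of the RefSeq table. Tex19.1 had 16, Gtsf1 13 and Irx3 14. Of 13 tested germline genes whose promoters are methylated in somatic cells, 12 matched the table, with a median of 17.5 CpG. For the genes called higher at 12.5 dpc below, 30 of 37 matched, with a median of 19.5. For those called lower, 3 of 7 matched, with a median of 12. The windows of the tested genes alone were not summarised. The palindromic E-box CACGTG, which reads the same on both strands, was present in 5 of those 12 germline windows (41.7%), among them Ddx4, in 3 of the 30 (10%) and in 7.24% of all windows. These are letters in a window and no measure of binding or methylation.

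The values were signal intensities that the authors had scaled to a mean of 125 on each array, and were tested after taking log2(signal + 16). Folds are quoted on this scale, so those of dim genes come out too small. Of 36701 probe sets other than controls, 24825 reached a signal of 50 on at least 2 of the 10 arrays of their type and were tested, standing for 12589 named genes. The median change of the tested probe sets was 0.01 on the log2 scale, and array A had 0.07, array B -0.01 and array C -0.04. On array A, Pearson's r across probe sets was 0.967 between the samples of 12.5 dpc and 0.950 between those of 11.5 dpc. It was 0.920 and 0.877 on array B, and 0.896 and 0.860 on array C. Between samples of different ages r reached 0.880 on array B and 0.857 on array C. Replicate 1 of 11.5 dpc stood further from the other 3 samples on array A. Its r there with the samples of 12.5 dpc was 0.927 and 0.940, against 0.954 and 0.960 for replicate 2. Its median signal on array A was 47.0, against 54.2 to 60.1. The b-actin control probe sets gave a ratio of 3 prime over 5 prime signal, a measure of RNA integrity and labelling, of 1.17 to 1.37 at 12.5 dpc and 1.44 to 1.88 at 11.5 dpc over the 3 array types, without overlap. The Gapdh ratio overlapped (0.806 to 0.864 at 12.5 dpc and 0.728 to 0.994 at 11.5 dpc). Of these measures the b-actin ratio separated the ages on all 3 array types. The median signal on array A did so too, and was higher in both samples of 12.5 dpc. On array C it was lower at 12.5 dpc, with 55.7 and 56.3 against 57.1 and 61.5, and on array B the ages overlapped. The part of the b-actin ratio in the results, like that of the low sample of 11.5 dpc, was not tested. For the medians only a fit after quantile normalization, given below, was made.

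The labelled tissue was checked against marker genes. Nr5a1, Wt1, Gata4 and Lhx9, transcription factors of the early gonad, had a summed signal of 3056.3 and 2356.0 at 12.5 dpc and of 3000.6 and 3618.5 at 11.5 dpc, and all 4 were above 50 in every sample. Of 4 Y-linked markers, 3 were on the arrays, none passed the filter for testing and none exceeded 37.2 in the 4 samples. Xist, which is transcribed from the inactive X chromosome of female cells, had 353.0 and 397.9 at 12.5 dpc and 74.7 and 236.4 at 11.5 dpc (limma adjusted p = 0.17). Replicate 1 of 11.5 dpc was again the low sample, and the groups did not overlap. The 6 markers of Sertoli and Leydig cells of the testis summed to 1085.4 and 1390.5 at 12.5 dpc and to 1222.3 and 1534.5 at 11.5 dpc, and none was called. Most of this sum came from Sox9 and Dhh, whose brightest probe sets had 643.9 to 892.2 and 316.0 to 535.8 over the 4 samples. Both carry design suffixes of probes that may be shared with other sequences. Tested probe sets without a suffix were dimmer, at 39.1 to 146.5 for Sox9 and 52.5 to 58.1 for Dhh. Insl3 reached 59.3, Hsd3b1 44.4, and Amh and Cyp17a1 at most 20.5. Of the 3 mesonephros markers on the arrays, Lhx1 had 52.0 and 66.3 at 12.5 dpc and 33.9 and 53.7 at 11.5 dpc, which overlapped, and Pax2 and Pax8 stayed at or below 37.6. Markers of other neighbouring tissues were brighter when the brightest probe set of each gene was taken. The 3 of adrenal cortex summed to 488.3 and 438.6 at 12.5 dpc and to 426.2 and 497.9 at 11.5 dpc. The 3 of neural crest and neurons on the arrays summed to 836.0 and 1013.3, against 1045.5 and 1041.5. None of these was called. However, Cyp21a1, Cyp11b1 and Tubb3 were read by probe sets with such suffixes. Another tested probe set of Tubb3 had 31.5 to 64.6 over the 4 samples, and another of Sox10 had 75.4 to 125.3.

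Between 12.5 and 11.5 dpc 56 of 24825 probe sets changed at a limma adjusted p under 0.05 (0.226%), 49 upward (0.197%) and 7 downward (0.0282%). Folds ran from 1.78 to 9.70, with a median of 3.18 among the rises and 2.20 among the falls. In none of the 56 did the samples of the ages overlap, which the call on these same values favours. Over all tested genes both samples of 12.5 dpc lay above both of 11.5 dpc in 21.1%, and below them in 20.5%. In 37 of the 49 rises the lowest of the 4 signals was that of 11.5 dpc replicate 1. With 1 probe set per gene, that sample was the lowest in 4001 of all 12589 tested genes, and 11.5 dpc replicate 2 in 2744. In a rise without overlap only a sample of 11.5 dpc can be the lowest, so these shares have unlike bases. The median log2 difference between the samples of an age was 0.22 at 12.5 dpc and 0.21 at 11.5 dpc among the rises, and 0.25 and 0.36 over all tested probe sets. A small difference within an age also favours a call. The count was 13 without replicate 1 and 553 without replicate 2 of 11.5 dpc, and 4 and 2 without replicates 1 and 2 of 12.5 dpc. It was also 2 when only the 4 samples of these ages were fitted (Dazl and Ap2b1) and 4 when the prior variance was not allowed to vary with signal (Ddx6, Irx3, Golm2 and a probe set without a gene symbol). All 56 kept their direction in every such fit, which was set in advance, because their samples do not overlap between the ages.

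**Figure D1:**
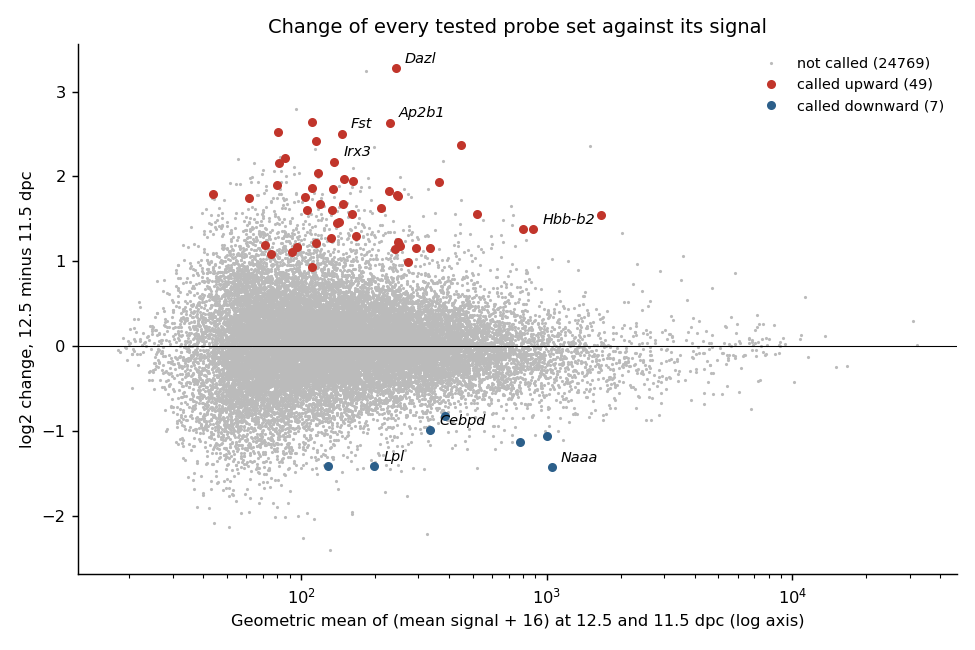
Each point is 1 of 24825 tested probe sets, with the geometric mean of its signal plus 16 at both ages on the horizontal axis (log scale) and its log2 change, 12.5 minus 11.5 dpc, on the vertical axis. The 49 probe sets called upward (red) lie mostly at low and middle signals, the 7 called downward (blue) at log2 changes of -0.83 to -1.43, and the 24769 others are grey.

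Among genes of germ cells, Dazl changed most. Dazl encodes an RNA-binding protein that licenses germ cells for sexual differentiation. Its signal was 925.8 and 531.8 at 12.5 dpc, against 35.0 and 91.5 at 11.5 dpc. Both later samples were far above both earlier ones, although the samples of each age also differed from each other. The log2 change was 3.28 ± 0.42 (SE), or 9.70-fold (limma adjusted p = 0.012). Dazl was called in 1 of the 4 fits that left out a sample, that without 11.5 dpc replicate 2, and its adjusted p was 0.063 to 0.228 in the other 3. Its second probe set had 92.7 and 63.0 at 12.5 dpc and 42.1 and 43.6 at 11.5 dpc, a log2 change of 0.66. As RNA was taken from whole ovaries, a change in the number of germ cells and a change in RNA per germ cell cannot be told apart. For comparison, the other 4 germ cell markers, Pou5f1, Dppa3, Ddx4 and Kit, had a summed signal of 1585.4 and 1075.4 at 12.5 dpc and of 861.3 and 703.5 at 11.5 dpc.

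No other member of the germ cell lists described below passed the threshold. Ddx4, the germ cell RNA helicase also known as vasa, had 178.0 and 137.6 at 12.5 dpc and 41.7 and 85.5 at 11.5 dpc (log2 change 1.17 ± 0.23, limma adjusted p = 0.081), while its second probe set overlapped and had a log2 change of 0.05. Gtsf1, a cofactor of the piRNA pathway, which silences transposons, had 155.2 and 140.8 at 12.5 dpc and 57.8 and 63.4 at 11.5 dpc (limma adjusted p = 0.089). Tex19.1, which protects germ cells from retrotransposons, had 275.6 and 200.1 at 12.5 dpc and 62.7 and 134.7 at 11.5 dpc (limma adjusted p = 0.10). On the first probe set of Ddx4, and for Gtsf1 and Tex19.1, the samples of 12.5 dpc lay above those of 11.5 dpc. Stra8, which drives entry into meiosis, was near the bottom of the scale in all 4 samples, with 8.6 and 2.7 at 12.5 dpc and 2.2 and 3.2 at 11.5 dpc.

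Among genes that mark the supporting cells of the gonad, Irx3 and Fst were called. As for Dazl, a change in the number of cells and one in RNA per cell cannot be told apart. Irx3, an Iroquois homeobox factor of pregranulosa cells, had 331.6 and 214.4 at 12.5 dpc, against 33.7 and 63.2 at 11.5 dpc. The groups were apart by more than 3-fold between their nearest samples, and the log2 change was 2.17 ± 0.24 (4.51-fold, limma adjusted p = 0.0058). Irx3 remained called in 3 of the 4 fits that left out a sample and had an adjusted p of 0.074 in the other. Fst, or follistatin, which binds activin, had 413.3 and 236.0 at 12.5 dpc and 22.7 and 71.0 at 11.5 dpc. Its log2 change was 2.50 ± 0.36 (limma adjusted p = 0.028), and its second probe set overlapped between the ages, with 191.8 and 128.8 against 78.9 and 131.7. Fst was called without 11.5 dpc replicate 2 but not when any other sample was left out (highest adjusted p 0.25).

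**Figure D2:**
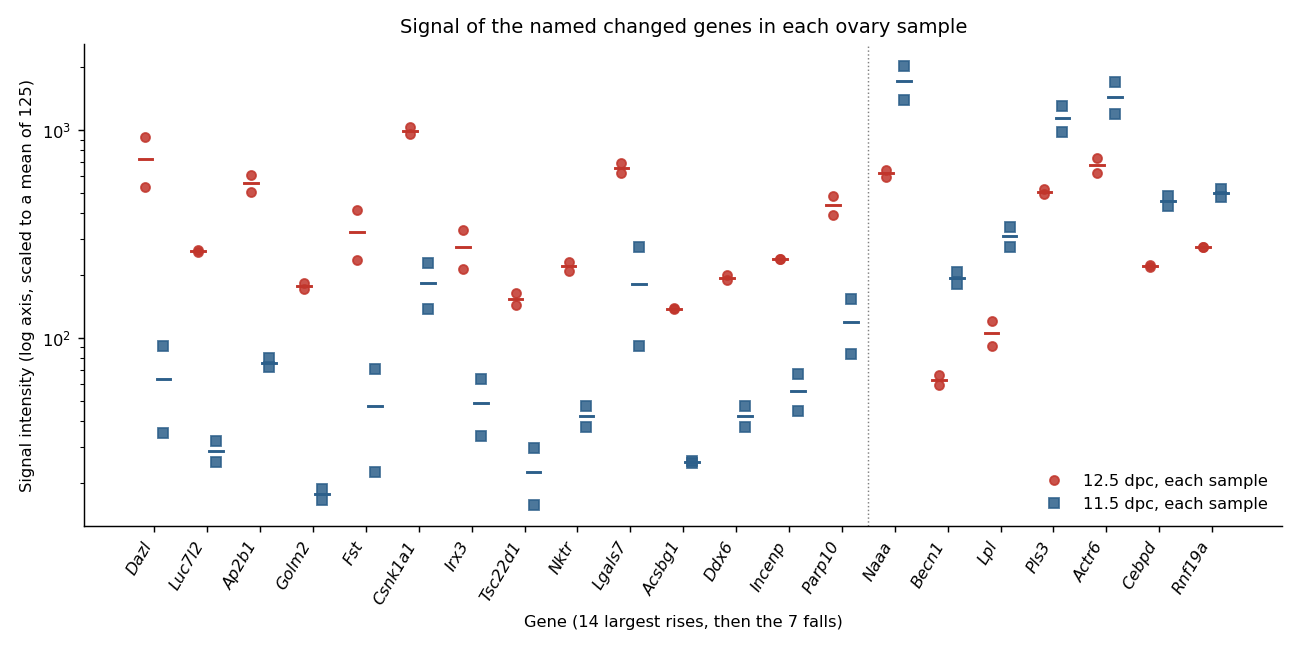
Signals of the 14 largest rises and the 7 falls among named genes, on a log axis, with the 2 samples of 12.5 dpc (red circles) left of the 2 samples of 11.5 dpc (blue squares) and a bar at each mean. The ages are apart in every gene, and the samples of 11.5 dpc spread most in Dazl, Fst and Lgals7.

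The risen genes that follow are placed together for reading only: the groupings in this and the next 3 paragraphs were made from the called genes and are no evidence of a theme. Igfbp2, a binding protein of insulin-like growth factors, had 974.7 and 752.7 at 12.5 dpc and 214.3 and 366.8 at 11.5 dpc (2.94-fold, limma adjusted p = 0.044). Ltbp4, which stores latent TGF-beta in the matrix, rose 2.76-fold, and Lep, the hormone leptin, rose 2.42-fold. Alcam, an adhesion protein, rose 2.25-fold, and the bicarbonate transporter Slc4a4 rose 3.36-fold, although its other 2 probe sets had log2 changes of 0.09. Lgals7, a galectin, rose 3.82-fold, with 694.6 and 623.4 at 12.5 dpc and 272.6 and 91.7 at 11.5 dpc. Its log2 change of 1.94 was 2.65 without replicate 1 and 1.22 without replicate 2 of 11.5 dpc. Nrn1, or neuritin, rose 1.98-fold, and Lrrn1, a leucine-rich repeat protein, 1.91-fold. Igfbp2, Ltbp4, Lep, Alcam, Lgals7, Slc4a4, Nrn1 and Lrrn1 were also higher at 16.5 dpc than at 12.5 dpc by their mean signals. Nrn1, for example, had a mean of 1335 at 16.5 dpc and of 370 at 12.5 dpc. At 14.5 and 18.5 dpc, however, Lep had means of 127 and 156, below its 190 at 12.5 dpc. Lgals7 had 507 and 625, below its 659.

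Of 27 tested genes of cholesterol and lipid metabolism 1 was called upward (Acsbg1) and 1 downward (Lpl), and the median log2 change was 0.04. This median was -0.18 to -0.04 when 1 sample was left out. Acsbg1, an acyl-CoA synthetase, had 139.2 and 137.4 at 12.5 dpc and 25.1 and 25.7 at 11.5 dpc (3.73-fold, limma adjusted p = 0.012), with less than 1 unit between the samples at the earlier age. Gatm, which makes the creatine precursor guanidinoacetate, rose 2.28-fold, and its other probe set had a log2 change of 0.96. Lyplal1, a lysophospholipase-like hydrolase, rose 2.60-fold. Lpl, or lipoprotein lipase, which releases fatty acids from circulating triglycerides, fell to 120.0 and 91.4 at 12.5 dpc, against 341.8 and 274.7 at 11.5 dpc (2.67-fold, limma adjusted p = 0.020). Naaa, a lysosomal amidase of N-acylethanolamines, fell to 644.4 and 592.5 at 12.5 dpc, against 2035.0 and 1402.1 at 11.5 dpc (2.69-fold, limma adjusted p = 0.034). The second probe sets of Lpl and Naaa had log2 changes of -0.43 and -0.55.

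Ap2b1 is the beta subunit of the AP-2 complex, which links cargo to clathrin at the cell surface. It had 609.3 and 503.3 at 12.5 dpc and 72.1 and 79.9 at 11.5 dpc (6.20-fold, limma adjusted p = 0.0058). Its other 3 probe sets had smaller log2 changes, of 0.25 to 1.04. No other of 20 tested genes of clathrin adaptors and coats was called, and their median log2 change was -0.10. Golm2, a Golgi membrane protein, rose 5.75-fold, with 172.6 and 183.0 at 12.5 dpc and 16.7 and 18.7 at 11.5 dpc, while its other 2 probe sets had log2 changes of 0.34 and 0.58. Tmed9, a cargo receptor of the early secretory pathway, rose 2.34-fold.

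The other rises were in genes of mixed roles, and each fold is that of the called probe set alone. Luc7l2, a factor of the U1 small nuclear ribonucleoprotein used in splicing, rose 6.26-fold. Ddx6, an RNA helicase of processing bodies, rose 3.64-fold, Nktr, a cyclophilin with a serine-arginine domain, rose 4.10-fold, and Alkbh5, which removes methyl groups from adenosine in RNA, rose 2.27-fold. Csnk1a1, a kinase of beta-catenin, had 956.0 and 1029.2 at 12.5 dpc and 138.2 and 228.5 at 11.5 dpc (5.19-fold, limma adjusted p = 0.038). Incenp, of the chromosomal passenger complex, rose 3.61-fold. Tsc22d1, a leucine zipper protein induced by TGF-beta, rose 4.47-fold, Parp10, an ADP-ribosyltransferase, 3.45-fold, Ube2b, a ubiquitin-conjugating enzyme, 3.19-fold, and the clock repressor Nr1d2 2.21-fold.

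Many changed genes were measured by more than 1 probe set. In all, 23 of the 44 changed genes with a symbol had another tested probe set, 53 probe sets together. Of these, 42 had the direction of the called one, 17 of them at an unadjusted limma p under 0.05, and 11 the opposite direction, 2 of them at that p. Over all tested probe sets 12.4% had an unadjusted p under 0.05. The median log2 change of the 49 other probe sets of risen genes was 0.38. In 14 genes the called probe set was not the one with the highest signal, among them Luc7l2, Golm2, Csnk1a1, Tsc22d1, Nktr, Ddx6 and Incenp.

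Genes differed in how their probe sets compared. Alcam had 3 others at log2 changes of 0.66 to 1.23, Nr1d2 had 1 at 0.95, and Klf7, a Krüppel-like factor, had 3 at 0.18 to 1.52, so all had the called direction. Luc7l2 had 7 others between -0.14 and 1.53. Tsc22d1 had 4 between -0.74 and 0.33, and its brightest had 2102.2 and 1562.5 at 12.5 dpc and 1933.2 and 2209.6 at 11.5 dpc, which overlapped. Of the 5 other probe sets of Csnk1a1, 2 ran the other way, 1 of them with 772.0 and 921.6 at 12.5 dpc and 1394.2 and 1038.4 at 11.5 dpc, and so did 1 of Alkbh5, with a log2 change of -0.58. The called probe sets of Csnk1a1, Ddx6, Lyplal1, Naaa and Becn1 carry design suffixes that mark probes shared with other sequences or chosen under relaxed rules. So do those of Pla2g4f and 1500009C09Rik, which rose 2.12-fold and 3.42-fold. All of these may not be specific. In all, 8 called probe sets had the suffix r, 3 s and 2 f. These were 0.45%, 0.74% and 0.10% of the tested probe sets with each suffix, against 0.22% without any. The brightest probe sets of Ddx6, Nktr and Incenp had log2 changes of -0.03, -0.17 and -0.07, and 1 of Ube2b had -0.13. For the 8 genes with a probe set in the opposite direction (Luc7l2, Tsc22d1, Csnk1a1, Alkbh5, Ddx6, Nktr, Incenp and Ube2b) a change of the gene as a whole is not shown, and which transcript each probe set detects was not analysed here.

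**Figure D3:**
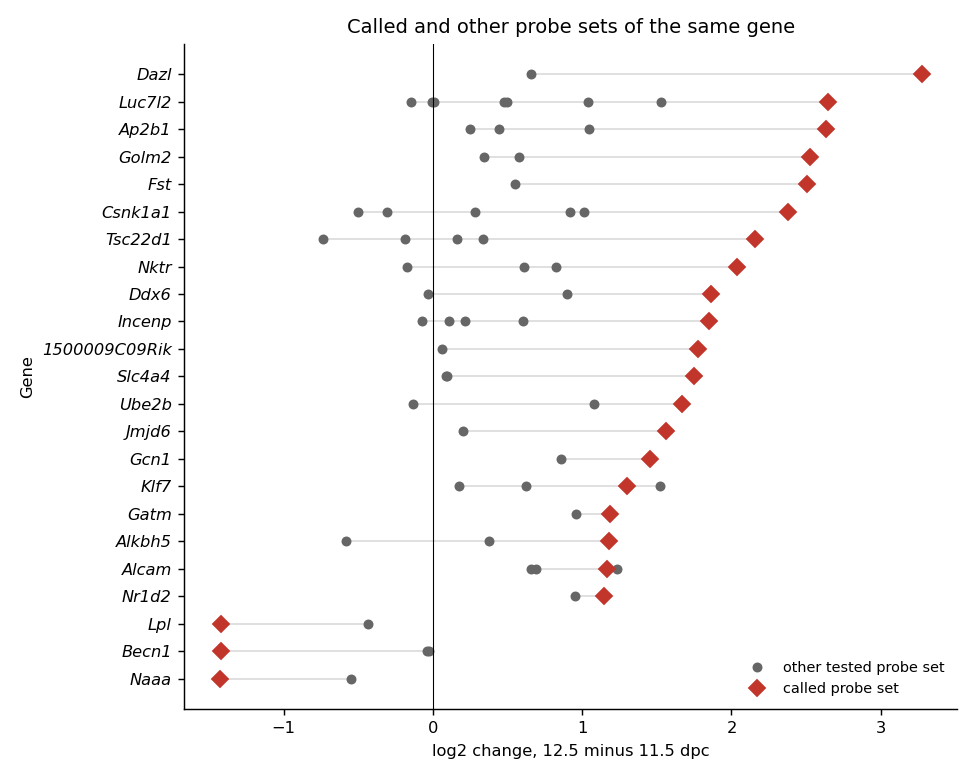
Log2 change, 12.5 minus 11.5 dpc, of the called probe set (red diamond) and of the other tested probe sets (grey points) of the 23 changed genes that had any. The probe sets of Alcam, Gatm and Nr1d2 lie within 0.6 of each other, while those of Tsc22d1 and Csnk1a1 lie on both sides of 0.

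Besides Lpl and Naaa, 5 genes fell. Cebpd, a stress-responsive transcription factor, had 225.5 and 218.3 at 12.5 dpc and 483.2 and 432.5 at 11.5 dpc (1.99-fold, limma adjusted p = 0.038). Pls3, an actin-bundling protein encoded on the X chromosome, had 518.9 and 492.4 at 12.5 dpc and 1308.4 and 976.3 at 11.5 dpc (2.20-fold, limma adjusted p = 0.042). Actr6, a nuclear actin-related protein of a chromatin remodelling complex, had 732.1 and 618.8 at 12.5 dpc and 1701.4 and 1189.5 at 11.5 dpc (2.09-fold, limma adjusted p = 0.044). At 14.5 dpc the mean signals were lower still, 144 for Cebpd, 261 for Pls3 and 498 for Actr6. Rnf19a, a ubiquitin ligase, fell 1.78-fold. The called probe set of Becn1, an autophagy protein, fell 2.67-fold, but its other 2 had log2 changes of -0.03 and -0.04. None of the 7 falls was called with only the 4 samples of these ages in the fit. Nor was any called without the filter on low signals, or when the prior variance was not allowed to vary with signal. The log2 change of Actr6, for example, was -0.81 without replicate 1 and -1.32 without replicate 2 of 11.5 dpc.

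Gene lists were described by counts, with 1 probe set per gene, that of the highest signal. Counted so, 24 of 12589 genes were called upward (0.191%) and 6 downward (0.0477%). Both samples of 12.5 dpc lay above both of 11.5 dpc in 21.1% of genes and below them in 20.5%. The median log2 change over all genes was 0.00, and 90% of genes lay between -0.70 and 0.71. All the counts below stand beside these.

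Most genes that mark primordial germ cells and pluripotency had higher signals at 12.5 dpc, with no call. Of 23 tested, 16 (69.6%) had both samples of 12.5 dpc above both of 11.5 dpc, none had the reverse, and the median log2 change was 0.61. Pou5f1, the factor Oct4 of pluripotent and germ cells, had 521.1 and 313.1 at 12.5 dpc and 250.3 and 193.1 at 11.5 dpc (limma adjusted p = 0.19), while its dimmer probe set had a log2 change of -0.62. Phlda2, an imprinted gene, had 311.1 and 221.0 against 80.9 and 115.9 (limma adjusted p = 0.097). Dppa2, a chromatin factor of pluripotent cells, had 125.3 and 114.6 against 52.8 and 51.4. Nanog had 232.2 and 171.3 at 12.5 dpc and 120.3 and 166.8 at 11.5 dpc, and Sox2 overlapped, with 494.2 and 446.7 against 453.6 and 316.1. By sample, 12.5 dpc replicate 1 was the highest of the 4 for 15 of the 23 genes and 11.5 dpc replicate 1 the lowest for 17. Over all 12589 tested genes these samples were the highest for 3233 and the lowest for 4001. The median of this list stayed between 0.46 and 0.74 in all other fits and with array A alone.

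The RNA machinery of germ cells and germline genes methylated in the soma were described next. Of 15 tested genes for RNA and piRNA factors of germ cells 1, Dazl, was called, 7 lay apart upward and 1 downward, and the median was 0.31. Of 13 germline genes methylated in somatic cells Dazl was called, 7 lay apart upward and 1 downward, and the median was 0.52. The lists share Dazl, Ddx4, Tex19.1, Tex101, Piwil2 and Mov10l1. With array A alone the medians of both lists were 1.17, and over the other fits they ran from 0.19 to 0.35 and from 0.22 to 0.68. Of 22 genes of meiotic prophase none was called, 6 lay apart upward and 7 downward, and the median was 0.01. Syce1, of the synaptonemal complex, had 297.2 and 202.4 at 12.5 dpc and 36.1 and 111.7 at 11.5 dpc (limma adjusted p = 0.089), and the meiotic cohesin subunit Stag3 had 1088.4 and 904.4 against 390.1 and 442.2 (limma adjusted p = 0.11). Sycp3, an axis protein of meiotic chromosomes, had 6.2 and 9.1 against 30.5 and 20.7. Of 16 genes of oocytes and follicles none was called, and the median was 0.12.

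Among 30 tested genes that mark the supporting lineage and its pregranulosa cells, Fst and Irx3 were called, 13 lay apart upward (43.3%) and 5 downward (16.7%), and the median was 0.31. Members of the list that mark the female pathway differed among themselves. Rspo1, an activator of Wnt signalling, had 147.8 and 101.6 at 12.5 dpc and 81.0 and 81.7 at 11.5 dpc, and Bmp2 had 569.2 and 703.4 against 487.8 and 236.3. Wnt4 overlapped on both of its probe sets, with 1427.5 and 1517.1 at 12.5 dpc and 1392.3 and 1833.8 at 11.5 dpc on the brighter. Foxl2, which maintains the ovarian fate, also overlapped, with 242.9 and 92.8 against 94.5 and 89.5, so that only 1 sample of 12.5 dpc stood above 11.5 dpc. None of these 4 was called (limma adjusted p 0.26 to 0.90). Irx5, the neighbour of Irx3 in its gene cluster, had 46.0 and 14.8 at 12.5 dpc and 76.8 and 87.2 at 11.5 dpc.

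Factors that build the early gonad held no call. Of 18 none was called, 2 lay apart upward and 4 downward, and the median was -0.19, with a range over other fits that reached 0.01. Gadd45g, needed for Sry expression in XY gonads, had 223.5 and 207.8 at 12.5 dpc and 424.0 and 442.1 at 11.5 dpc (log2 change -0.96, limma adjusted p = 0.067). Lhx9 had 266.3 and 300.2 against 732.1 and 393.1, with a log2 change of 0.40 on its dimmer probe set, and Tcf21, a mesenchymal factor, had 558.8 and 598.6 against 1022.6 and 740.6. The brightest probe sets of Nr5a1, Wt1 and Gata4 overlapped between the ages. Of 14 tested testis genes none was called, and Sox9 had 3 tested probe sets with log2 changes of -0.47, -0.23 and 0.39.

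**Figure D4:**
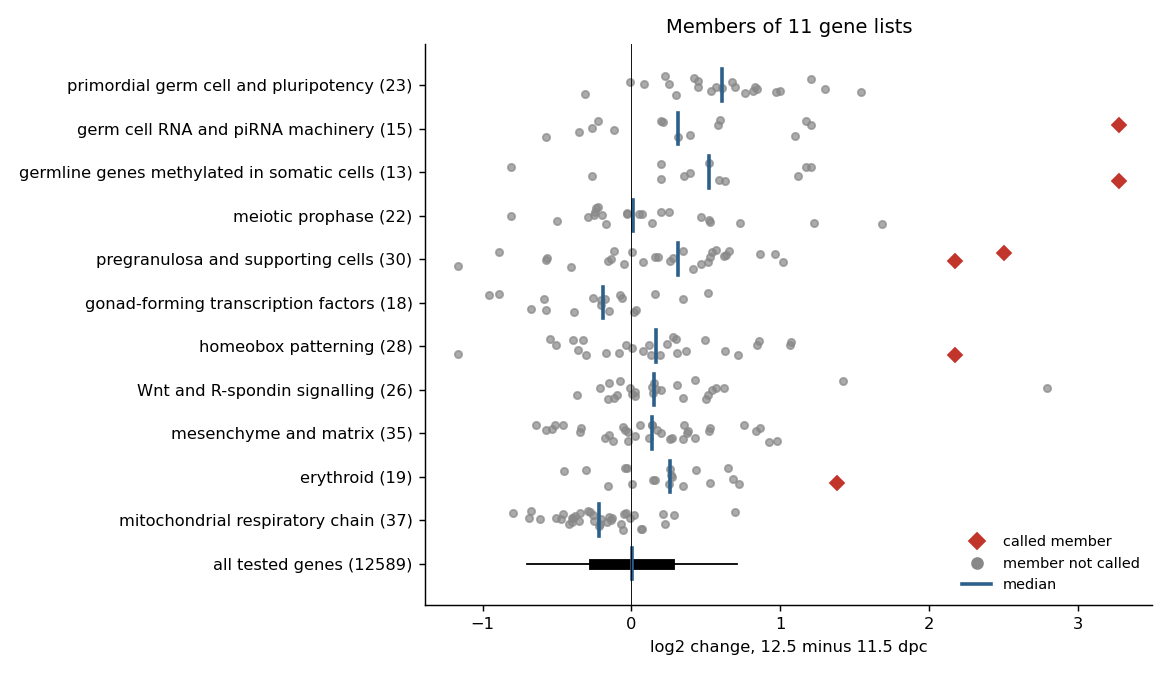
Log2 change, 12.5 minus 11.5 dpc, of each tested member of 11 gene lists, with called members as red diamonds, others as grey points, and the list's median as a blue bar. For all 12589 genes the thick bar spans the 25th to 75th percentiles and the thin line the 5th to 95th percentiles, -0.70 to 0.71; the median of the primordial germ cell list is 0.61.

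Signalling lists held few calls. The medians of the meiotic, oocyte, clathrin, TGF-beta and retinoic acid lists changed sign in at least 1 other fit. Among others, so did those of the lists of early gonad factors, testis, mitosis, and immediate early and heat shock genes. The medians of the insulin-like growth factor list and of the cholesterol and lipid list did so too. Of 26 tested genes of Wnt and R-spondin signalling none was called, 9 lay apart upward and 2 downward, and the median was 0.15. Wnt5a, a ligand of non-canonical signalling, had 1092.3 and 1234.4 at 12.5 dpc and 377.7 and 473.8 at 11.5 dpc (limma adjusted p = 0.093). Lef1 and Axin2, readouts of beta-catenin, had log2 changes of 0.57 and 0.62. Of 37 genes of TGF-beta, activin and BMP signalling Fst was called, 11 lay apart upward and 9 downward, and the median was 0.07. Notch and Hedgehog genes (27 tested) had a median of 0.09 and retinoic acid genes (15) a median of -0.11, with no call in either. Aldh1a2, which makes retinoic acid, had 310.2 and 317.5 at 12.5 dpc and 451.8 and 454.6 at 11.5 dpc. Of 28 homeobox genes Irx3 was called and 10 lay apart upward, among them the X-linked Rhox9, with 5632.7 and 4716.5 at 12.5 dpc and 2397.7 and 2510.4 at 11.5 dpc (limma adjusted p = 0.15).

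Blood genes differed by globin type. Hbb-b2, an adult beta globin, rose 2.60-fold, with 1150.5 and 1689.8 at 12.5 dpc and 555.7 and 497.5 at 11.5 dpc (limma adjusted p = 0.012). It remained called in 3 of the 4 fits that left out a sample. Hba-a1, an adult alpha globin, had 5176.4 and 6834.7 against 3719.7 and 3669.2 (limma adjusted p = 0.10). The embryonic globins Hba-x and Hbb-bh1 had log2 changes of -0.03 and 0.00, and Hbb-y one of 0.25. Adult beta globin genes are near-identical, so the probe set may read more than 1 of them. The summed signal of the 5 red cell markers was 17953.2 and 22166.6 at 12.5 dpc, against 17163.8 and 15514.9 at 11.5 dpc. The 4 endothelial markers summed to 377.3 and 491.6 against 438.1 and 513.4, and the 4 macrophage markers to 151.3 and 191.4 against 154.0 and 175.9, so both overlapped.

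Genes of the mitochondrial respiratory chain stood highest in 1 sample of 11.5 dpc. None of 37 was called, 10 (27.0%) lay apart downward and 2 upward, and the median was -0.22. In 29 of the 37 the highest of the 4 signals was that of 11.5 dpc replicate 1, against 3726 of all 12589 tested genes. Cox6c, a subunit of cytochrome c oxidase, had 1911.7 and 2250.2 at 12.5 dpc, against 4631.9 and 2190.4 at 11.5 dpc. The median was -0.02 to -0.40 when 1 sample was left out. Of 25 immediate early and heat shock genes Cebpd was called, 8 lay apart upward and 7 downward, and the median was -0.01. The highest log2 change among them was 1.72, of the heat shock gene Hspb1, which was not called, and the immediate early gene Fos had 9.7 and 18.0 against 64.3 and 34.0 (limma adjusted p = 0.20).

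The changed probe sets were followed to 18.5 dpc. The median of the 49 rises, as log2 of mean signal relative to 11.5 dpc, was 1.66 at 12.5 dpc and 1.22 at 14.5 dpc, then 1.61 and 1.66 at 16.5 and 18.5 dpc. Since the probe sets were chosen for a difference in the first interval, part of a later return is set by that choice. Of the 49, 21 peaked at 12.5 dpc by their mean, 2 peaked at 14.5 dpc, 15 peaked at 16.5 dpc and the other 11 peaked last, at 18.5 dpc. Dazl stayed high, with means of 808, 688 and 819 at 14.5, 16.5 and 18.5 dpc, and Irx3 went higher, with 393, 652 and 526. Ap2b1 instead was back at 75.8 at 14.5 dpc, against means of 556 at 12.5 dpc and 76.0 at 11.5 dpc.

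At 14.5 dpc 14 of the 49 rises were nearer, on the log2 scale, to their level at 11.5 dpc than to that at 12.5 dpc. The named ones were Ap2b1, Golm2, Tsc22d1, Ddx6, Incenp, Ube2b, Gcn1, Lyplal1, Tmed9, Alkbh5 and Aatf. In 7 of these 11 the called probe set was not the brightest of its gene, as it was in 13 of all 37 risen genes. Of the 7 falls 6 had their highest mean at 11.5 dpc, and Becn1 had its highest at 18.5 dpc. Among the lists, 14 of the 23 primordial germ cell and pluripotency genes (60.9%) had their highest mean at 12.5 dpc, as did 15 of 28 homeobox genes (53.6%), against 18.0% of all tested genes. Pou5f1 had means of 112 and 26.2 at 14.5 and 16.5 dpc, and Gtsf1 had 693 and 676, against 148 at 12.5 dpc. Of the 15 genes of germ cell RNA biology 9 (60%) were highest at 18.5 dpc, as were 23.9% of all tested genes.

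**Figure D5:**
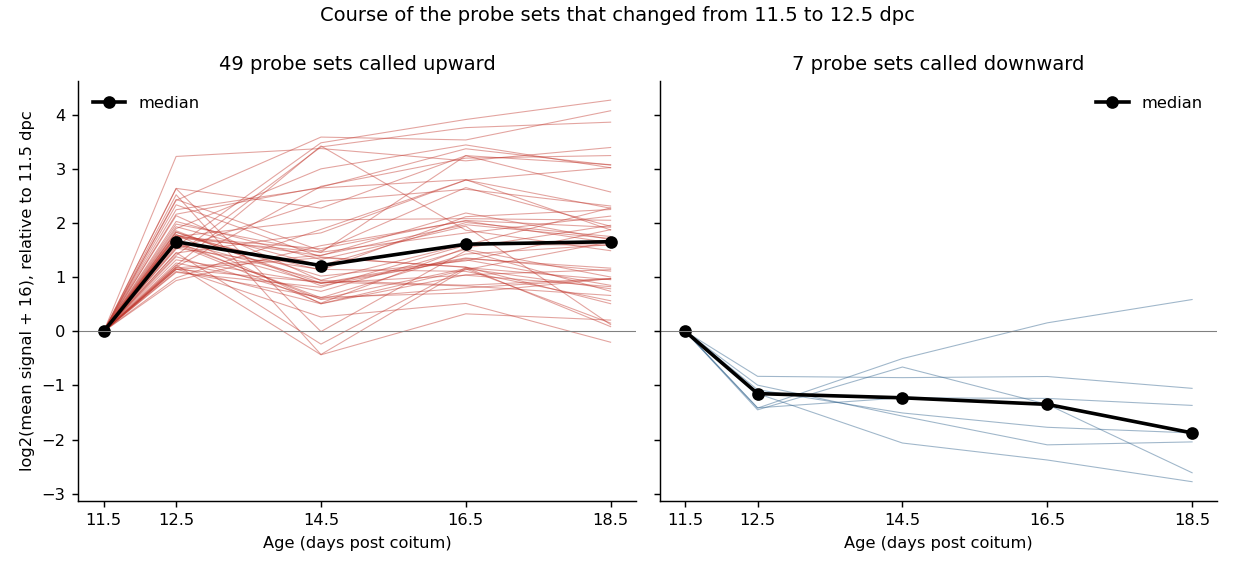
Mean signal of the 49 probe sets called upward (left) and the 7 called downward (right) at each age, as log2(mean signal + 16) relative to 11.5 dpc, with 1 thin line per probe set and the median in black. The median of the rises is 1.66 at 12.5 dpc and 1.22 at 14.5 dpc, and that of the falls is -1.15 and -1.23.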

How the data were processed

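Each probe set of an array came with 1 deposited linear intensity. Per the labels, the authors brought every array to the same mean, 125. The software used is not named in the labels, detection calls were not used, and 0 columns of per-sample values were left unused. Each array type was fitted by itself on log2(signal + 16) with limma 3.58.1 in R 4.3.3 (lmFit, eBayes with an intensity trend), with the 5 ages as groups over 10 arrays, leaving 5 residual degrees of freedom. The contrast was 12.5 minus 11.5 dpc. Two-sided p-values were adjusted (Benjamini-Hochberg) across the 24825 tested probe sets of the 3 types together. A probe set was called at an adjusted p below 0.05. An exact permutation test of 2 samples against 2 cannot go below p = 0.333 and was not used. The number of arrays limits the precision.

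Gene names came from the platform annotation (29131 probe sets had 1 symbol, 724 several, 6846 none) and were compared with RefSeq (GRCm38.p6), where 87 Entrez identifiers were not found and 0 symbols changed. A gene in a list was represented by its tested probe set of highest mean signal. The text names the 14 largest rises and up to 10 largest falls among called probe sets with 1 symbol, no overlap and a mean signal of at least 100, other called genes by fold, the up to 4 members of a list with the smallest p, a set of well-known gonad genes and marker genes, and other probe sets of named genes. In list paragraphs other members are named beside these to show how a list varied, and were chosen after their values were seen. The members and the 34 lists were chosen with earlier results of these data known. The fit was checked on simulated data. Alternatives were other pseudocounts, filters, normalization, fitted samples, variance trend, replicate block, adjustment, choice of probe set and leaving out each sample.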

Additional observations from a re-analysis of the deposited data

How the results depend on the processing

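All 56 changed probe sets kept their direction in every alternative that tested them (55 of 55 at a minimum signal of 100). As their samples do not overlap between the ages, only quantile normalization could have reversed one. The number past the threshold did not hold. It was 6 with no filter on low signals (6 up and 0 down), 32 after quantile normalization (28 up and 4 down), 2 with the 4 samples of the 2 ages alone (2 up and 0 down) and 4 with no intensity trend (4 up and 0 down). With a pseudocount of 64 it was 63, with 16 downward, so that 74.6% were upward in place of 87.5%. With a pseudocount of 4, a minimum signal of 100 or adjustment within each array type it was 54, 57 and 55. Leaving out 1 sample gave 2 to 553 calls, 2 to 312 upward and 0 to 241 downward. Of the 56, 46 were called in 1 of these 4 fits, 3 in none, 3 in 2, 3 in 3 and 1 in all 4. The replicate numbers did not pair the samples: the correlation of the differences between replicates 1 and 2 at 12.5 and 11.5 dpc was -0.09, -0.09 and -0.00 on arrays A, B and C. With the replicate block the count was 32 (26 up and 6 down), all among the 56. Over 206 probe sets of called and named genes and their alternatives, 2236 values kept their side of the threshold, 390 lost it, 27 gained it and 0 called values reversed. Of the list medians 374 moved by less than the spread between samples and 102 by more. The fit with array A alone was chosen after the data were seen. The cause of these differences was not tested.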

Other observations

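Of the 56 changed probe sets 12 had no single gene symbol, 10 with none and 2 with several, and all 12 were higher at 12.5 dpc. One of those without a symbol, on array B, was the only probe set called in all 4 fits that left out a sample. It had 229.9 and 271.0 at 12.5 dpc and 31.9 and 35.7 at 11.5 dpc (5.34-fold, limma adjusted p = 0.0015), and its mean went on to 584, 562 and 824 at 14.5, 16.5 and 18.5 dpc. It was singled out after its values were seen.

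Lists of dividing cells showed little difference between the ages. Of 40 tested genes of DNA replication and the cell cycle and 37 of mitosis none was called, with medians of 0.01 and -0.03. Pcna, the sliding clamp of DNA polymerase, had 1245.0 and 1158.3 at 12.5 dpc and 2285.9 and 1333.9 at 11.5 dpc. For 22 of the 37 mitosis genes 11.5 dpc replicate 1 had the highest of the 4 signals, against 3726 of all 12589 tested genes. Of 26 genes of insulin-like growth factors and imprinting Igfbp2 was called, and Igfbp4 had 550.9 and 437.9 against 276.0 and 317.9 (limma adjusted p = 0.11). X-linked genes (392 tested) had a median log2 change of -0.03 and autosomal genes (12147) of 0.00.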
